A study of Homo sapiens with 6 samples.

Results

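Open chromatin was examined at 45 genes of the WNT signalling pathway among 20033 protein-coding genes of the nuclear genome. The genes were chosen by name and role. They were 19 WNT ligands, 10 Frizzled (FZD) receptors, the 2 co-receptors LRP5 and LRP6, 11 effectors inside the cell and 3 secreted inhibitors. A gene was given the peaks that overlapped its promoter, defined as 3 kb on each side of the 5′ end of its annotated record, and, separately, the peaks inside its body beyond that window. The assay was ATAC-seq, which reads open DNA through the insertions of a transposase, performed on human neural progenitor cells (NPCs) made from the H1 embryonic stem cell line. WT NPCs came from unmodified H1 cells. dKO NPCs lacked both UTX, encoded by KDM6A, and JMJD3, encoded by KDM6B, which remove the repressive methylation of lysine 27 on histone H3. The third group was dKO NPCs that also carried BAF53B, a subunit of the neuronal BAF chromatin remodelling complex encoded by ACTL6B. Each group had 2 replicates, and 1 peak list per group was analysed.

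The knockout cells came from clones picked after drug selection, and BAF53B was introduced with a lentivirus. The lists pool the replicates. The values below therefore have no SD and no replicate check, no test between groups was possible, and every difference describes these 3 pooled lists.

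WNT proteins are secreted, lipid-modified ligands that bind a Frizzled receptor together with LRP5 or LRP6. In the canonical branch this halts the destruction of β-catenin, the product of CTNNB1, by a complex that contains APC and the AXIN scaffolds, with Dishevelled (DVL) proteins as relays. β-catenin then enters the nucleus and works with the DNA-binding factors TCF7, TCF7L1, TCF7L2 and LEF1. In the developing neural tube, WNT signals pattern the dorsal and posterior regions and act on the division of progenitors.

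There were 7880 peaks for WT, 25439 for dKO and 16948 for BAF53B cells, all with a −log10 q of at least 5. The number of fragments piled up at each summit, here called the pileup, was solved from the deposited values, and the lowest was 25 to 26 fragments in the 3 lists. The genome background, which scales with the number of fragments, was 6.33 for WT, 6.81 for dKO and 6.78 for BAF53B cells, and the lists differed by at most 1.08-fold in this measure of depth. Promoter peaks at neural progenitor markers were listed for 2 of 10 genes in WT cells (VIM and HES1), for 8 in dKO cells and for 6 in BAF53B cells, and PAX6 and NES had none in any list. Gene-body peaks were listed at 3 of the 10 in WT (PAX6, NES and CDH2), 1 in dKO (PAX6) and 2 with BAF53B (NES and CDH2). Among all protein-coding genes, 28.2%, 56.4% and 45% had a promoter peak in WT, dKO and BAF53B cells. The shares with a gene-body peak were 9.34%, 27.1% and 19.8%. Of 5 pluripotency markers, 0 had a promoter peak in WT and LIN28A had one in the other lists. Of 6 mesenchymal markers, the WT list had one at 0, the dKO list at 3 and the BAF53B list at 2, and of 6 neuronal markers 1, 3 and 1 had one. The part of cell composition in the results below was not tested.

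Of the 45 WNT genes, 6 had a promoter peak in the WT list, 25 in the dKO list and 15 in the BAF53B list, or 13.3%, 55.6% and 33.3%. Among all protein-coding genes the shares were 28.2%, 56.4% and 45%, so at this threshold the WNT genes were near the background in dKO and below it in the other lists. Among peaks with a −log10 q of at least 10 they were below it in dKO too, at 26.7% against 42.3%. At the main threshold the pathway divided by role. In dKO, 5 of 19 ligands (26.3%), 9 of 10 Frizzled receptors (90%) and 9 of 11 effectors (81.8%) had a promoter peak, together with 1 of the 2 co-receptors and 1 of the 3 inhibitors. The same order held with BAF53B, where 2 ligands, 6 Frizzled receptors and 6 effectors had one. In WT, 1 ligand, 2 Frizzled receptors, LRP6 and 2 effectors did. Among dKO peaks with a −log10 q of at least 10, 7 Frizzled receptors (70.0%) stayed above the 42.3% of all genes. The 4 effectors (36.4%) and 0 ligands fell below it. When each list was reduced to its 7880 peaks of highest −log10 q, 6, 8 and 7 members had a promoter peak in WT, dKO and BAF53B cells, or 13.3%, 17.8% and 15.6%, against 28.2%, 33.3% and 31.1% of all genes, which left a gap of 2 members between dKO and WT. The 3 members that were then found in dKO and not in WT were FZD2, FZD5 and DVL3.

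**Figure D1:**
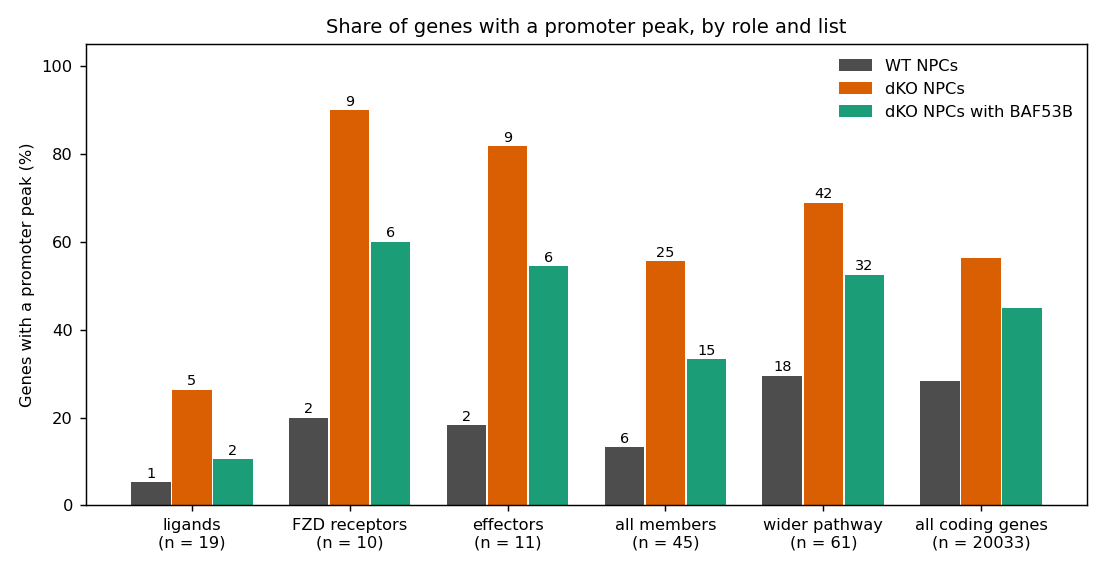
Bars give the share of genes (%, y axis) with a promoter peak in each of the 3 peak lists, for ligands, Frizzled receptors, effectors, all 45 members, 61 further pathway genes and all 20033 protein-coding genes, and the number above a bar is the count of genes. The dKO bars reach 90% for Frizzled receptors and 81.8% for effectors against 26.3% for ligands.

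A promoter peak was shared by all 3 lists at 4 WNT genes (8.89%, against 26.8% of all genes), namely FZD1, LRP6, TCF7L2 and APC. It was found in dKO and not in WT at 19 (42.2%, against 28.6% of all genes). This excess turned around among peaks with a −log10 q of at least 10 (22.2%, against 28.2%) and at equal list length (6.67%, against 9.35%). It stayed with canonical transcript starts (51.1%, against 30.1%) and with the starts of all transcripts (48.9%, against 31.5%). Of these 19, 9 also had a promoter peak with BAF53B (20.0% of the 45, against 16.2%) and 10 had one in dKO only (22.2%, against 12.4%). WNT2B and FZD9 had one with BAF53B only (4.44%, against 1.88%), although WNT2B also had a dKO peak near another of its starts, given below. No member had one in WT and not in dKO, where the share of all genes was 0.399%. At the other 18 members no list held a promoter peak (40%, against 41.3%). They were 13 of the 19 ligands together with LRP5, CTNNB1, DVL1, SFRP1 and SFRP2.

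**Figure D2:**
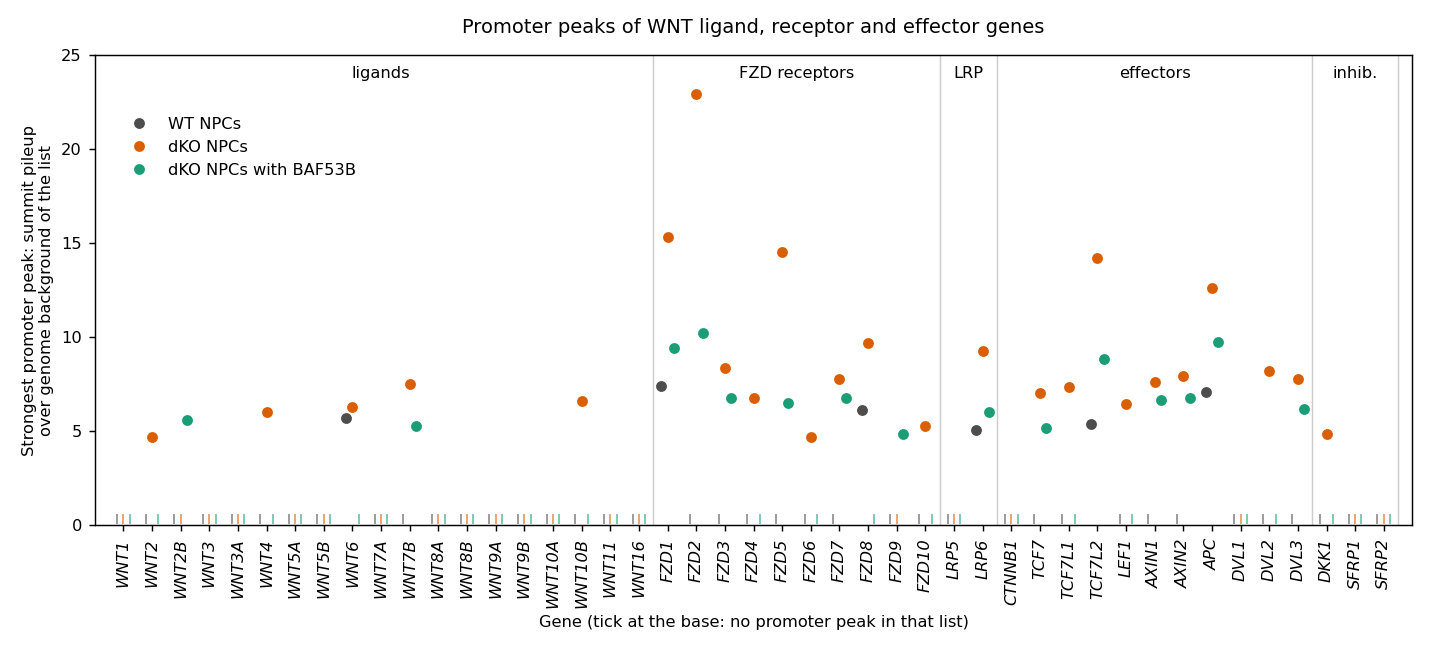
Each point is the strongest promoter peak of a WNT gene in 1 list, as the summit pileup over the genome background of that list (y axis, a ratio), with genes in order of their role on the x axis and ticks at the base for lists without a promoter peak. FZD2 in dKO is highest at 22.9, and the ligand points lie between 4.70 and 7.49.

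FZD2 had the strongest promoter peak of all 45 genes. No peak was listed there in WT. In dKO the summit of its main peak lay 140 bp upstream of the gene start with a pileup of 156 fragments, and a further peak 795 bp upstream held 70. With BAF53B the corresponding summits held 69 and 39 fragments. The main dKO peak ranked at the 98.0th percentile of the 11301 genes with a dKO promoter peak. FZD5 followed a similar course, with no peak in WT, 99 fragments in dKO at chr2:207769394-207770274 (hg38) and 44 with BAF53B. Its percentile was 87.2 in dKO and 44.9 with BAF53B.

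FZD1 was open in every list. Its promoter peak held 47, 104 and 64 fragments in WT, dKO and BAF53B cells, with all 3 summits within 106 bp upstream of the gene start at chr7:91264055-91264859 in dKO. FZD8 had a peak at its start in WT, with 39 fragments, and in dKO, with 50. The stronger dKO peak at FZD8, with 66 fragments, was centred 1272 bp upstream and overlapped no WT peak, and neither was listed with BAF53B.

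The remaining Frizzled genes had no WT promoter peak. FZD3 held 57 fragments in dKO and 46 with BAF53B, and FZD7 held 53 and 46. FZD7 had a further dKO peak of 44 fragments centred 2956 bp into its single exon, over the 3′ UTR. FZD4 (46 fragments), FZD10 (36) and FZD6 (32) had a promoter peak in dKO only. FZD9 was the exception among the receptors, since its only peak was found with BAF53B, with 33 fragments 607 bp inside the coding exon. A peak in intron 3 of FZD3, about 19.7 kb from its start, was listed in all 3 lists with 34, 55 and 55 fragments in WT, dKO and BAF53B cells. It was the only gene-body peak of the 45 genes that overlapped across all 3 lists.

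The 2 co-receptors, which pair with Frizzled proteins, differed. The LRP6 promoter held 32, 63 and 41 fragments in WT, dKO and BAF53B cells. A peak of 43 fragments in intron 2 of LRP6 was listed with BAF53B only. LRP5 had no promoter peak, but a dKO peak of 77 fragments lay in its intron 1, 30.3 kb from the gene start at chr11:68342059-68343270, and it was the strongest peak of the gene. With BAF53B the single LRP5 peak was another one, in intron 22 with 32 fragments.

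Among the effectors, TCF7L2, a main nuclear partner of β-catenin, and APC, the scaffold of the destruction complex, were open in every list. TCF7L2 held 34, 97 and 60 fragments in WT, dKO and BAF53B cells at its promoter (chr10:112949602-112950414 in dKO). A further dKO peak of 54 fragments lay 1643 bp into the gene. APC held 45, 86 and 66 fragments at its upstream start (chr5:112707275-112708133 in dKO). APC has another promoter about 30.4 kb downstream, at the start of its canonical transcript. There dKO had 37 fragments and BAF53B cells 40, and no peak was listed in WT. The upstream APC promoter was thus listed in 3 lists and the downstream one in 2.

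The other TCF/LEF factors had no WT promoter peak. TCF7 held 48 fragments in dKO and 35 with BAF53B. TCF7L1, often a repressor of WNT targets, held 50 in dKO, and LEF1 held 44 in dKO, neither with BAF53B. AXIN1, a limiting scaffold of the destruction complex, held 52 in dKO and 45 with BAF53B, and AXIN2, a negative-feedback target of the pathway, held 54 and 46. DVL2 held 56 in dKO only. DVL3 held 53 in dKO at a summit 88 bp upstream that had no counterpart with BAF53B. A second dKO peak in intron 1 of DVL3, with 36 fragments, overlapped the BAF53B peak of 42.

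CTNNB1 was counted as having no promoter peak because its annotated record begins about 4.8 kb upstream of the main start. At the start of its canonical transcript a peak was listed in dKO, with 53 fragments (chr3:41198709-41199824), and with BAF53B, with 50 fragments, but not in WT. DVL1 had no peak in any list. By the canonical start 5 members (11.1%) were counted in the WT list, 28 (62.2%) in the dKO list and 15 (33.3%) in the BAF53B list. The shares of all genes were then 29.0%, 58.7% and 46.6%. CTNNB1, WNT5A and WNT16 were gained in dKO, APC was lost in WT, and CTNNB1 took the place of WNT2B with BAF53B.

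The ligand promoters that were open, by the 5′ end of the record, were weakly so. WNT7B, a ligand of the developing forebrain, held 51 fragments in dKO and 36 with BAF53B, in peaks centred 1629 and 2101 bp upstream. WNT10B held 45 in dKO, 2475 bp upstream. WNT4 held 41 and WNT2 held 32 in dKO only. WNT6 was the single ligand with a WT peak, of 36 fragments in intron 1 within its promoter window, and held 43 in dKO. WNT2B held 38 at its record start with BAF53B only. In its intron 2, 1035 bp from another of its starts, dKO held 43, and an overlapping BAF53B peak held 31. The 5 dKO promoter values lay between percentiles 6.23 and 41.1 of all genes with a dKO promoter peak. Their median was 43.0 fragments, against 57.0 for the 9 Frizzled receptors, 53.0 for the 9 effectors and 57.0 for all genes. The median deposited fold over local background in dKO was 2.69 for these ligands, 3.72 for the receptors and 3.13 for the effectors, against 4.66 for all genes. The median −log10 q was 6.31, 13.8 and 8.87, against 18.1. By both measures all 3 roles lay below all genes.

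No promoter peak was found at WNT1, WNT3, WNT3A, WNT5A, WNT5B, WNT7A, WNT8A, WNT8B, WNT9A, WNT9B, WNT10A, WNT11 or WNT16, which include the ligands of the dorsal midline WNT1 and WNT3A. At WNT5A and WNT16 the canonical start lies 3.23 and 3.63 kb from the record start. In dKO, WNT5A held 54 fragments 2022 bp from its canonical start, and WNT16 held 29 fragments 475 bp from its own. At WNT3, WNT5B, WNT9B and WNT11 the canonical start also lies beyond the 3 kb window, and no list had a peak within 3 kb of it. Several WNT genes lie side by side in the genome. Across the WNT10B and WNT1 pair and its flanks of 3 kb, 1 peak was listed in dKO and 0 in the other lists. Across WNT6 and WNT10A the numbers were 1, 2 and 0 in WT, dKO and BAF53B cells. Across WNT3A and WNT9A they were 0, 1 and 0, and across WNT3 and WNT9B no list had a peak. The secreted inhibitor DKK1, which blocks LRP5 and LRP6, had a promoter peak of 33 fragments in dKO only. SFRP1, which binds WNT ligands, had 1 intronic peak of 35 fragments with BAF53B, and SFRP2 had none.

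The promoter sequences of FZD1, FZD5, TCF7L2 and APC are shown to place the summits in their sequence. Each is hg38 sequence on the strand of the gene, 5′ to 3′, within 100 bp of the dKO summit and ending before the first transcribed base where the window reached it. Capitals mark the GC box GGGCGG or its complement CCGCCC, the site of SP and KLF factors. These genes follow FZD2 in dKO pileup, and the motif was chosen after the values were seen.
FZD1 (chr7:91264264-91264432): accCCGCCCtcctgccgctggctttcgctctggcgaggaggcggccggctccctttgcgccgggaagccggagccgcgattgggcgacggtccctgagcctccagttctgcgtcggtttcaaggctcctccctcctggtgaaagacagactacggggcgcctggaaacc
FZD5 (chr2:207769914-207770114): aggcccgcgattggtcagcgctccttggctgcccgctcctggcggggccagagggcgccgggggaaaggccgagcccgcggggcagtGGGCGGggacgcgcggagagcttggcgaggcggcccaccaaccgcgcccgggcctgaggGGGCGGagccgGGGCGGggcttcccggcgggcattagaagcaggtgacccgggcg
TCF7L2 (chr10:112950060-112950246): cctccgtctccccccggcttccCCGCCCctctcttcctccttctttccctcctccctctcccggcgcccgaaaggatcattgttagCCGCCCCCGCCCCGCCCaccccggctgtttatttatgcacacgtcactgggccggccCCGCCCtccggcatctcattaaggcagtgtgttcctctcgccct
APC (chr5:112707396-112707517): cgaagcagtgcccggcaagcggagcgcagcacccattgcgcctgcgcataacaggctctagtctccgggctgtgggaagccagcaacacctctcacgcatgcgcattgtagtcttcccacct
FZD1, FZD5 and TCF7L2 held 1, 3 and 5 such boxes and the APC stretch held 0. A box lay within 100 bp of the strongest dKO promoter summit at 17 of 25 WNT genes (68.0%) and at 65.0% of all genes with a dKO promoter peak, so its presence did not set the WNT promoters apart. The stretches were rich in G and C, from 62.3% for APC to 78.6% for FZD5. The median GC content at the summit was 73.6% for the 9 Frizzled receptors, 65.7% for the 9 effectors and 63.7% for the 5 ligands, against 67.2% over all genes. GC content affects recovery in ATAC-seq libraries, and its part in the difference between roles was not tested.

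The comparison of dKO with WT asks whether loss of both demethylases changes accessibility at these genes. At 6 members both lists had a promoter peak. Relative to genome background, the strongest peak was higher in dKO at all 6, with a median log2 ratio of 0.85, and 96.3% of all genes with both were higher too, with a median of 0.77. The ratio was at least 2 at 2 of the 6 (33.3%, against 27.7% of all such genes). TCF7L2 had a ratio of 2.65 (95% interval 1.78 to 4.04). FZD1 had 2.06 (1.44 to 2.97). LRP6 had 1.83 (1.18 to 2.89) and APC 1.78 (1.22 to 2.61). WNT6 had 1.11 (0.696 to 1.78), an interval that includes no difference. FZD8 had 1.57, but this set its upstream dKO peak against the WT peak at its start. With the deposited fold over local background, the median log2 ratio of the 6 was 0.58, against 0.49 over all genes. That fold was higher in dKO at TCF7L2, FZD1, LRP6 and APC, but at WNT6 it was 3.43 in WT and 2.77 in dKO. At the FZD8 start it was 3.41 in WT and 2.73 in dKO. The intervals are exact and cover counting error only. TCF7L2, FZD1, LRP6 and APC all lay above the median ratio of all genes, 1.70, and only the interval of TCF7L2 excluded that value.

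For the 19 members with a dKO promoter peak and none in WT, the absence was set against what the WT list could have shown. The dKO pileup was scaled to the WT genome background and divided by the pileup that the WT list would have needed at the same scaled local background. The median was 1.09 over the 19, against 1.24 over the 5725 such genes. For WNT4, WNT10B and FZD10 the quotient was 0.953, 0.951 and 0.956, so at that background a peak of unchanged height would not have been listed in WT. The WT local background at the 19 promoters is not known, and a lower one would lower the pileup needed. Only FZD2 and FZD5, at 3.02 and 2.04, reached 1.5 (2 of 19, against 24.3%). The next values were 1.41 for DVL3 and 1.32 for FZD3. At the other 12, with quotients from 1.03 to 1.23, the lists cannot tell a loss from a small drop below the threshold. By this quotient FZD2 and FZD5 lay furthest above the pileup needed. It is built from dKO values and corrects for depth only. Over all genes with a promoter peak in both lists, the median ratio of dKO to WT was 1.70. Whether FZD2 and FZD5 rose beyond that general difference was not tested.

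**Figure D3:**
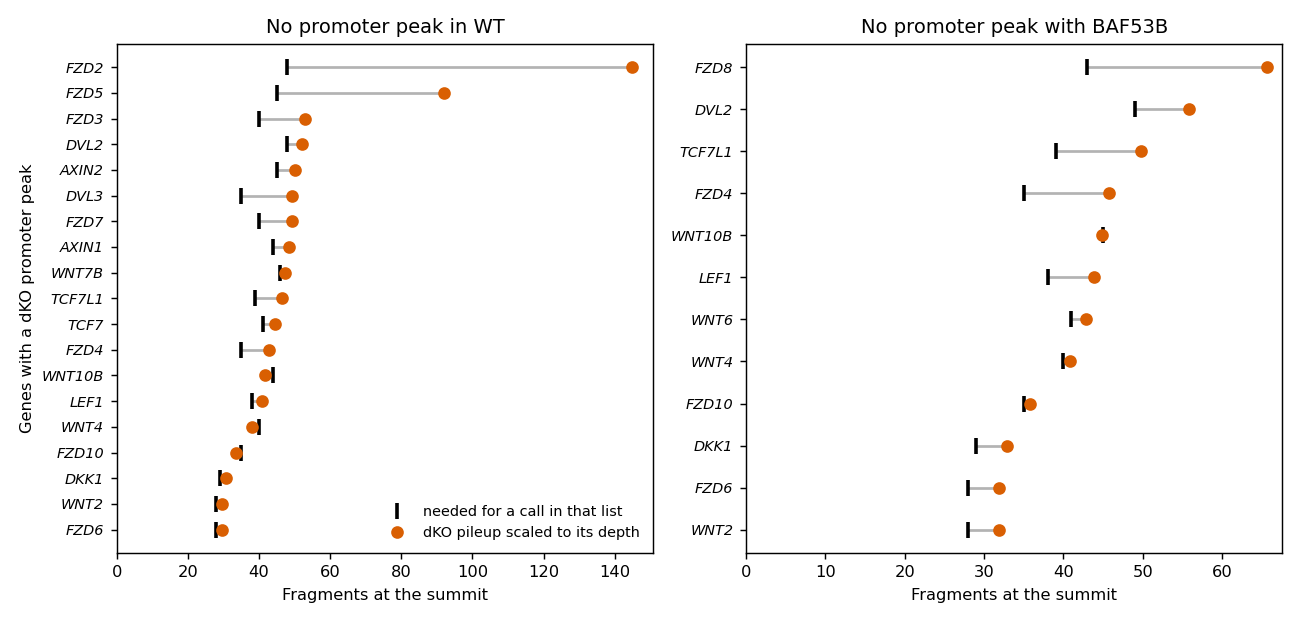
Genes have a dKO promoter peak and none in WT (left, 19 genes) or none with BAF53B (right, 12 genes). Points give the dKO summit pileup scaled to the depth of the other list (x axis, fragments). Bars give the pileup that list would have needed at the scaled dKO local background. FZD2 and FZD5 stand far to the right of their bars at 145 and 92.0 fragments, and most genes lie close to theirs.

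The comparison of BAF53B cells with dKO asks whether the added subunit shifts accessibility. Both lists had a promoter peak at 13 members. By pileup over genome background the strongest peak was lower with BAF53B at all 13, where 86.3% of all genes with both were lower. For DVL3 this set peaks at different sites against each other, and at the site that both lists share BAF53B was higher, with 42 fragments against 36. The median ratio was 0.732, against 0.736 over all genes. FZD2 had a ratio of 0.444 (95% interval 0.330 to 0.593) and FZD5 0.446 (0.306 to 0.643). FZD1 had 0.618 (0.445 to 0.852), TCF7L2 0.621 (0.443 to 0.866) and LRP6 0.654 (0.430 to 0.984). For APC, WNT7B, FZD3, FZD7, TCF7, AXIN1, AXIN2 and DVL3 the interval included 1. Only the intervals of FZD2 and FZD5 excluded 0.736, the median of all genes, and those of FZD1, TCF7L2 and LRP6 held it. By role the median ratio was 0.618 over 5 Frizzled receptors and 0.783 over 6 effectors. With the deposited fold over local background in its place, the median difference over the 13 was −0.20 on the log2 scale, against −0.45 for the pileup over genome background. Over all genes the fold gave −0.26, over the 5 Frizzled receptors −0.51 and over the 6 effectors −0.03. The fold was higher with BAF53B than in dKO at AXIN1 (3.69 against 2.92), AXIN2 (3.31 against 2.92), WNT7B (2.90 against 2.69) and FZD7 (3.43 against 3.36). At the other members with both peaks it was lower.

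Of the 25 members with a dKO promoter peak, 12 had none with BAF53B, against 2697 of the 11301 genes with a dKO promoter peak. Scaled in the same way, FZD8 reached 1.53 times the pileup needed, FZD4 1.31 and TCF7L1 1.28. The others lay between 0.996 for WNT10B and 1.15 for LEF1. The share at or above 1.5 was 8.33% of the 12, against 14.3% of 2697 genes. BAF53B and WT both had a promoter peak at FZD1, LRP6, TCF7L2 and APC, where BAF53B was 1.27, 1.20, 1.65 and 1.37 times WT. The median over all 5397 such genes was 1.21, and 80.7% were higher with BAF53B. The interval excluded 1 only for TCF7L2 (1.06 to 2.59), and it held the median of all genes. At FZD1, LRP6 and APC the difference between BAF53B cells and WT was thus within counting error.

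Inside gene bodies, beyond the promoter window, 2 members had peaks in the WT list, 15 in the dKO list and 10 in the BAF53B list (4.44%, 33.3% and 22.2%), against 9.34%, 27.1% and 19.8% of all genes. These counts include the CTNNB1 peaks and the downstream APC promoter described above. With the starts of all transcripts taken as promoters, 1, 10 and 6 members were left, against 5.20%, 17.8% and 12.6% of all genes. The dKO list held 31 such peaks, or 1.46 per 100 kb of member gene length, against 0.671 over all genes. The WT list held 2 (0.0942 per 100 kb, against 0.157) and the BAF53B list 14 (0.660, against 0.424). Effectors held 16 of the 31 dKO peaks and ligands held 12. Only 1 of the 31 overlapped a WT peak and 9 overlapped a BAF53B peak, or 3.23% and 29.0%, against 15.7% and 33.6% of all dKO gene-body peaks. Of the 31 dKO promoter peaks 6 and 14 did, or 19.4% and 45.2%, against 42.9% and 69.3% of all dKO promoter peaks. Of the 14 BAF53B gene-body peaks, 8 overlapped a dKO peak (57.1%, against 53.3% of all BAF53B gene-body peaks). At 6 members dKO held 2 or more promoter peaks (FZD2, FZD7, FZD8, TCF7, TCF7L2 and DVL3, 13.3%, against 5.72%).

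WNT5B, a ligand of the non-canonical branch, had 6 gene-body peaks in dKO and 1 with BAF53B. All 6 lay upstream of its canonical start, in the part of the gene record covered by longer transcripts, and the strongest, of 55 fragments, lay within 3 kb of the start of FBXL14. TCF7L1 had 4 dKO peaks in its introns 3 and 4, with 54, 39, 83 and 30 fragments from 56.4 to 152 kb into the gene. The peaks of 54 and 83 were also listed with BAF53B, with 30 and 37. The other BAF53B peaks, of 30 and 26 fragments at 102 and 165 kb, overlapped none in dKO. The WT list had a different peak in intron 3, of 33 fragments, that overlapped no peak of the other lists. TCF7L2 had 4 dKO gene-body peaks with 36 to 56 fragments, of which the one in intron 5 also had 30 with BAF53B. A further BAF53B peak in intron 5, of 49 fragments, overlapped none in dKO. LEF1 had 3, with 53, 26 and 25 fragments, and none in the other lists. AXIN2 had 1 of 39 fragments in intron 3 and 1 of 60 in intron 10, both in dKO only. WNT8B had 2 in dKO, with 49 and 39 fragments, and LRP5 had the 2 in dKO of which the stronger is given above.

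**Figure D4:**
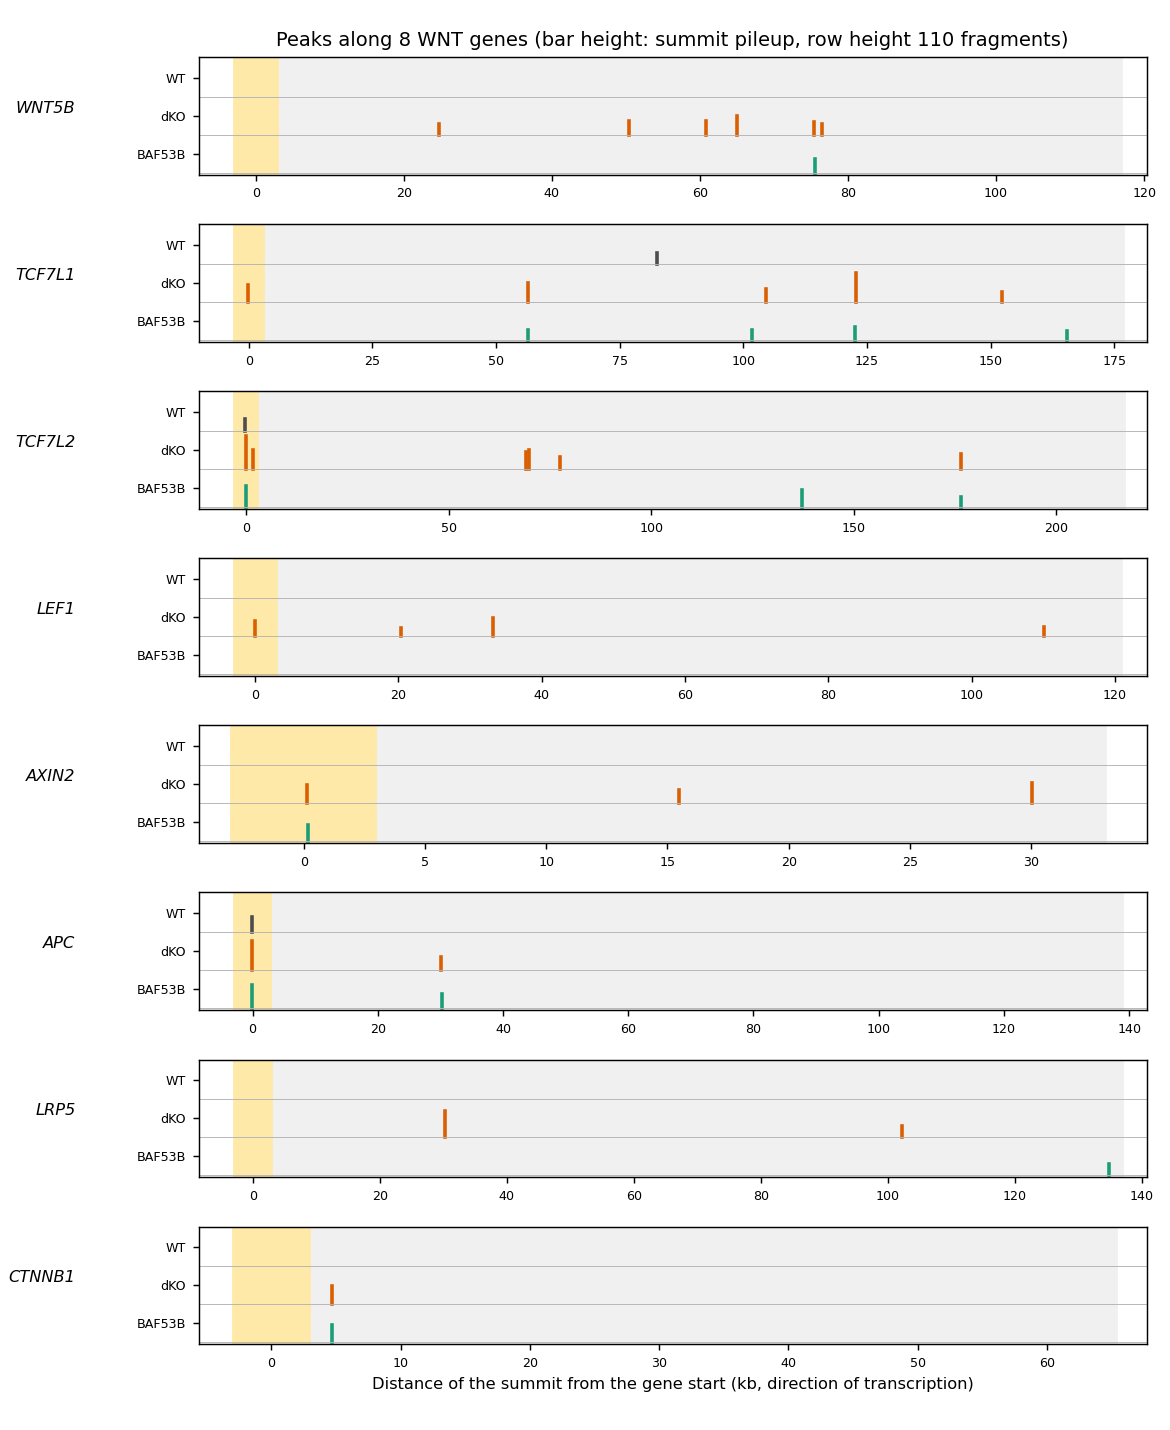
Peaks along WNT5B, TCF7L1, TCF7L2, LEF1, AXIN2, APC, LRP5 and CTNNB1, with the distance of each summit from the gene start in kb on the x axis, rows for WT, dKO and BAF53B, bar height proportional to the pileup (fragments), the gene body in grey and the promoter window in yellow. The dKO rows hold most of the gene-body bars, and CTNNB1 shows its dKO and BAF53B bars at 4.7 kb, at the canonical start.

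Sites for the factors at the end of the pathway were looked for within 100 bp of the summits. The TCF/LEF motif was searched as CTTTGAT or CTTTGAA on both strands. It was present in 4 of 62 dKO peaks of the WNT genes (6.45%, exact 95% interval 1.79 to 15.7), against 3.83% of all dKO peaks. In WT 0 of 8 had it, which allows a share of up to 36.9%, and with BAF53B 1 of 30. The interval holds the share of all peaks. Outside promoters the share was 3.23% (1 of 31), against 5.06% of all dKO peaks outside protein-coding promoters. Of these 4 dKO peaks, 3 are shown as the sequences in which a β-catenin partner could be looked for. They lie in intron 3 of AXIN2 (39 fragments), upstream of DKK1 (33) and upstream of WNT2 (32), and each was listed in dKO only. Sequences are hg38 on the strand of the gene, within 100 bp of the summit, with the motif in capitals.
AXIN2 (chr17:65546091-65546291): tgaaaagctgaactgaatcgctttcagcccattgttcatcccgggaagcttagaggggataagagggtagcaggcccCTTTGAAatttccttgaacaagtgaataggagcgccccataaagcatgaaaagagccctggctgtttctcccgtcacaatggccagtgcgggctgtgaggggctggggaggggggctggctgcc
DKK1 (chr10:52314062-52314262): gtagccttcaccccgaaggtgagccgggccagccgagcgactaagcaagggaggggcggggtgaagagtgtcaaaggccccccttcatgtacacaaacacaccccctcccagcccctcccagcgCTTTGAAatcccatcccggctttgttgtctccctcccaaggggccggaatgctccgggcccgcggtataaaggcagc
WNT2 (chr7:117323669-117323869): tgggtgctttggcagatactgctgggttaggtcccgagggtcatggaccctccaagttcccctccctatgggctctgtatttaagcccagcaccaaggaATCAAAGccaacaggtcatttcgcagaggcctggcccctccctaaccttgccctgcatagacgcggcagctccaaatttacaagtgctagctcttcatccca
The WNT2 match starts 1 bp before the summit, the DKK1 match 24 bp after it and the AXIN2 match 23 bp before it. A match describes these letters only. The SOX motif (CCTTTGT or CCATTGT) was in 7 of the 62 dKO peaks (11.3%, interval 4.66 to 21.9), against 7.05% of all. The AP-1 motif (TGACTCA or its complement TGAGTCA) was in 1 (1.61%, against 3.54%) and the RFX motif (GTTGCCA or GTTGCTA) in 3 (4.84%, against 5.81%). No word searched is contained in another.

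Of 61 further genes of the pathway, the WT list had a promoter peak at 18, the dKO list at 42 and the BAF53B list at 32, or 29.5%, 68.9% and 52.5%, against 28.2%, 56.4% and 45% of all genes. In dKO and not in WT 24 had one (39.3%, against 28.6%). None had one in WT and not in dKO, against 0.399%. The 5 with the most dKO fragments were CTNNBIP1, DAAM1, GSK3B, GSK3A and RHOA. CTNNBIP1, an inhibitor of β-catenin, held 49, 165 and 67 fragments in WT, dKO and BAF53B cells. DAAM1, of the planar cell polarity branch, held 58, 160 and 88, and RHOA held 43, 142 and 76. GSK3B, the kinase of the destruction complex, held 76, 150 and 100, and its relative GSK3A held 52, 145 and 80. Over the 18 of these genes with a peak in both WT and dKO the median log2 ratio was 1.26, and 10 were at least 2-fold higher (55.6%), against a median of 0.77 and 27.7% over all genes. Among 9 Notch receptors and ligands 1, 4 and 3 had a promoter peak, and among 11 Hedgehog pathway genes 3, 5 and 6. The Notch shares were 11.1%, 44.4% and 33.3% and the Hedgehog shares 27.3%, 45.5% and 54.5%, to be read against the same 28.2%, 56.4% and 45% of all genes.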

How the data were processed

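ATAC-seq was performed by the authors on 2 replicates of each of 3 groups (6 samples), with peaks listed once per group. Per the labels and the study's methods, the authors trimmed reads with cutadapt 1.13, aligned them to hg38 with Bowtie2 2.2.5, removed duplicates with SAMtools 1.3.1 and Picard 1.90 and called peaks with MACS2. The Tn5 shift and the calling options are not given in the sources used here. In the deposited lists the fold is a ratio of the summit pileup to the local background after a pseudocount of 1, and the −log10 p and −log10 q are the authors' Poisson values of the same pileup. The deposited score and the distance to the summit were used only to place and check peaks.

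The fold and −log10 p of a peak gave a whole pileup for at least 99.9% of peaks in each list, with a tolerance of 0.001 in −log10 p. On 3000 simulated peaks 100% of pileups were recovered, and 95.9% of 2000 simulated ratio intervals held the true ratio. The lowest local background of a list was taken as its genome background and its depth, since read totals are not in the lists. Pileups count fragments after duplicate removal, so intervals cover counting error only.

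Gene records and starts were from GENCODE 44, same build as the lists. An overlap of 1 bp counted. Ratios set the strongest promoter peak of a gene in each list against that in another, each over its genome background, with exact conditional 95% intervals. Shares have exact binomial intervals. Values over all 20033 genes are printed beside those of the members. With 1 pooled list per group no test between groups was made. The members, lists and motifs were chosen with earlier results of these data known. All 45 members are accounted for. Fragment counts are given for those with a promoter peak in all lists or in 1 list, the 10 with the most dKO fragments and those with the most dKO gene-body peaks, and the 5 strongest of the further pathway genes. Some listed peaks lay close to the lowest −log10 q of 5, among them those of FZD10 (5.68), WNT4 (5.61) and WNT10B (5.33) in dKO. The quotient for absent peaks, the canonical positions of CTNNB1 and APC, the GC box and the neighbouring WNT pairs were added after the data had been seen. Alternatives tried were equal list length, peaks with a −log10 q of 10 or more, a promoter window of 1 kb, the summit inside the window, canonical or all transcript starts, the deposited fold or −log10 p in place of the pileup, reciprocal overlap of 50%, a motif window of 50 bp and motifs outside promoters only. Scripts ran in Python 3.11.15 with scipy 1.17.1, pandas 2.3.3, numpy 2.4.6 and matplotlib 3.10.9. The promoter sequence of FZD2 is not reported here.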

Additional observations from a re-analysis of the deposited data

How the results depend on the processing

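With equal list length, in which each list kept its 7880 peaks of highest −log10 q, a promoter peak was left at 8 members in dKO and 7 with BAF53B, against 6 in WT. In dKO these were 0 ligands, 4 Frizzled receptors (40.0%) and 3 effectors (27.3%), with LRP6, against 33.3% of all genes. The number in dKO and not in WT fell from 19 to 3. Then 1 member, WNT6, had one in WT and not in dKO (2.22%, against 4.24% of all genes). Gene-body peaks were left at 6 members in dKO and 6 with BAF53B (13.3% in each, against 9.03% and 9.25% of all genes). With a −log10 q of at least 10 the members numbered 2 in WT, 12 in dKO and 6 with BAF53B, 10 were in dKO and not in WT (22.2%, against 28.2% of all genes), and dKO held 0 ligands and 4 effectors. Gene-body peaks were then found at 0 members in WT and 6 with BAF53B, and the share of dKO member peaks with a TCF/LEF motif was 0%. A window of 1 kb left 2 ligands in dKO (10.5%, against 52.9% of all genes). The starts of all transcripts gave 8 (42.1%, against 62.8%), with gene-body peaks at 1 member in WT and 6 with BAF53B. These 2 counts were 2.22% and 13.3%, against 5.20% and 12.6% of all genes. The deposited fold gave a median log2 difference of −0.20 between BAF53B and dKO, against −0.45. These settings keep fewer or other peaks by construction. Among member peaks outside promoters the TCF/LEF share was 3.23%, below that of all such peaks. The other counts under the alternatives stayed within 1.5 times and the other medians kept their sign. No paired analysis was possible because the 2 replicates of a group share their peaks, and leaving out a replicate was not possible for the same reason. Depth limits the absence of a peak: the 19 promoters absent from WT would have needed 28 to 48 fragments at their scaled background, and the 12 absent with BAF53B 28 to 49.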
